A study of Xenopus laevis with 30 samples.

Results

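The genes described here are 6 gene models of the African clawed frog Xenopus laevis that carry the names of wound and immediate early genes: the models whose closest human proteins are KLF2 (Xelaev18025218m), KLF4 (Xelaev18023103m) and MYC (Xelaev18032361m), together with gadd45a.S, dusp1.L and dusp1.S. They were taken by identifier, with earlier results of these data known, and are 6 of the 17321 genes listed at either stage. Their counts of calls are therefore not those of a blind selection. All 6 were listed at both stages and all 6 passed the filter on low values. The suffixes .L and .S mark the long and short chromosome copies, or homeologs, that the ancestral genome duplication of this frog left behind. KLF2, KLF4 and MYC are the closest human proteins by a protein search of the authors, per the file headers, so the 3 models are called by those symbols below.

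Immediate early genes are transcribed within minutes of a stimulus and need no newly made protein, and many of them are switched on through the ERK branch of the MAP kinase cascade. Wounding an embryo activates ERK and this class of genes, and some of the same genes also have regional roles in the gastrula, where FGF signalling through ERK acts in mesoderm and neural tissue. KLF2 and KLF4 are zinc finger transcription factors, and KLF4 is known in the mouse for building the skin barrier. MYC is a transcription factor that drives ribosome production and growth, GADD45A is a stress-induced protein known from mammals for growth arrest and DNA repair, and DUSP1 is a nuclear phosphatase that switches MAP kinases off.

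The study measured poly(A) RNA in 30 libraries of the Nasco strain and concerned regeneration of twin embryos after bisection. At stage 10.5, the early gastrula, and at stage 12, the late gastrula, 5 groups of 3 libraries were taken: uncut whole embryos, left half-embryos, right half-embryos, dorsal half-embryos and ventral half-embryos. Half-embryos were cut at stage 8, the blastula, in Barth's solution and grown on in a dilution of it, while the labels describe embryo culture in diluted Marc's Modified Ringers. Which of these media held the whole embryos is not stated outright, so an effect of medium and one of bisection cannot be told apart in any comparison with whole embryos. The labels name no transgene and no added factor, and they do not say how many embryos went into a library or that replicates came from separate clutches. The p-values therefore reflect the variation among libraries, part of which may be technical. Left and right half-embryos are called sagittal half-embryos, and dorsal and ventral half-embryos frontal half-embryos. In whole embryos or half-embryos alike, fewer cells of a type and less RNA per cell cannot be told apart.

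Values are RPKM, reads scaled by the length of the gene model and by library depth. At stage 10.5 the listed genes drew 3532883 to 3739329 reads from a whole-embryo library and 3814623 to 5813109 from a half-embryo library. At stage 12 depth was 2091772 to 2920488 reads for whole embryos and 2526910 to 5071874 for half-embryos. It was lower than at stage 10.5 in whole embryos and in half-embryo libraries 1 and 2, but higher in half-embryo libraries 3 of every group. Chordin, the BMP antagonist of the dorsal organizer (CHRD model Xelaev18029538m), stood at 124 to 145 RPKM in dorsal and 0.0570 to 0.578 in ventral half-embryos at stage 10.5, which matched the labels of the frontal cut. Left library 2 of stage 12 stood apart: its organizer marker genes summed to 344 RPKM, against 1268 to 1616 in the other sagittal libraries and 191 to 277 in ventral half-embryos, and its ventral marker genes summed to 1846, against 807 to 1032. Right library 2 of stage 10.5 also had a low organizer sum, 620 against 947 to 1775 in the other sagittal libraries of that stage. Comparisons that include the left group are given with and without left library 2 of stage 12 where that changed a call. The other comparisons of that stage were not refitted without it, although it enters their estimate of the spread.

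Differences are differences of mean log2(RPKM + 1) between groups, with their standard error, and for genes at low RPKM they are smaller than the true fold. A gene was called where the Benjamini-Hochberg adjusted p of limma over all genes tested was 0.05 or less. Of the 6 genes, 2 were called higher in the mean of the 4 half-embryo groups than in whole embryos at both stages, MYC and gadd45a.S, and 4 were not called in that comparison at either stage. The background was 7.69% of all genes called at stage 10.5 (2.38% higher) and 2.78% at stage 12 (1.39% higher). KLF2, KLF4, MYC and both dusp1 copies were called between the dorsal and ventral groups at 1 or both stages, KLF2, KLF4 and MYC being higher ventrally and dusp1 higher dorsally. There 2 of the 6 were called at stage 10.5 and 4 at stage 12, against 0.990% and 3.76% of all genes. Marker genes moved in the comparison with whole embryos too: at stage 10.5, 6 of 22 mesoderm markers were called higher in half-embryos, and 5 of 22 organizer and 1 of 21 neural markers lower, while at stage 12 the calls were 2 of 21 neural markers, both lower. Their part in the results for MYC and gadd45a.S was not tested.

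**Figure D1:**
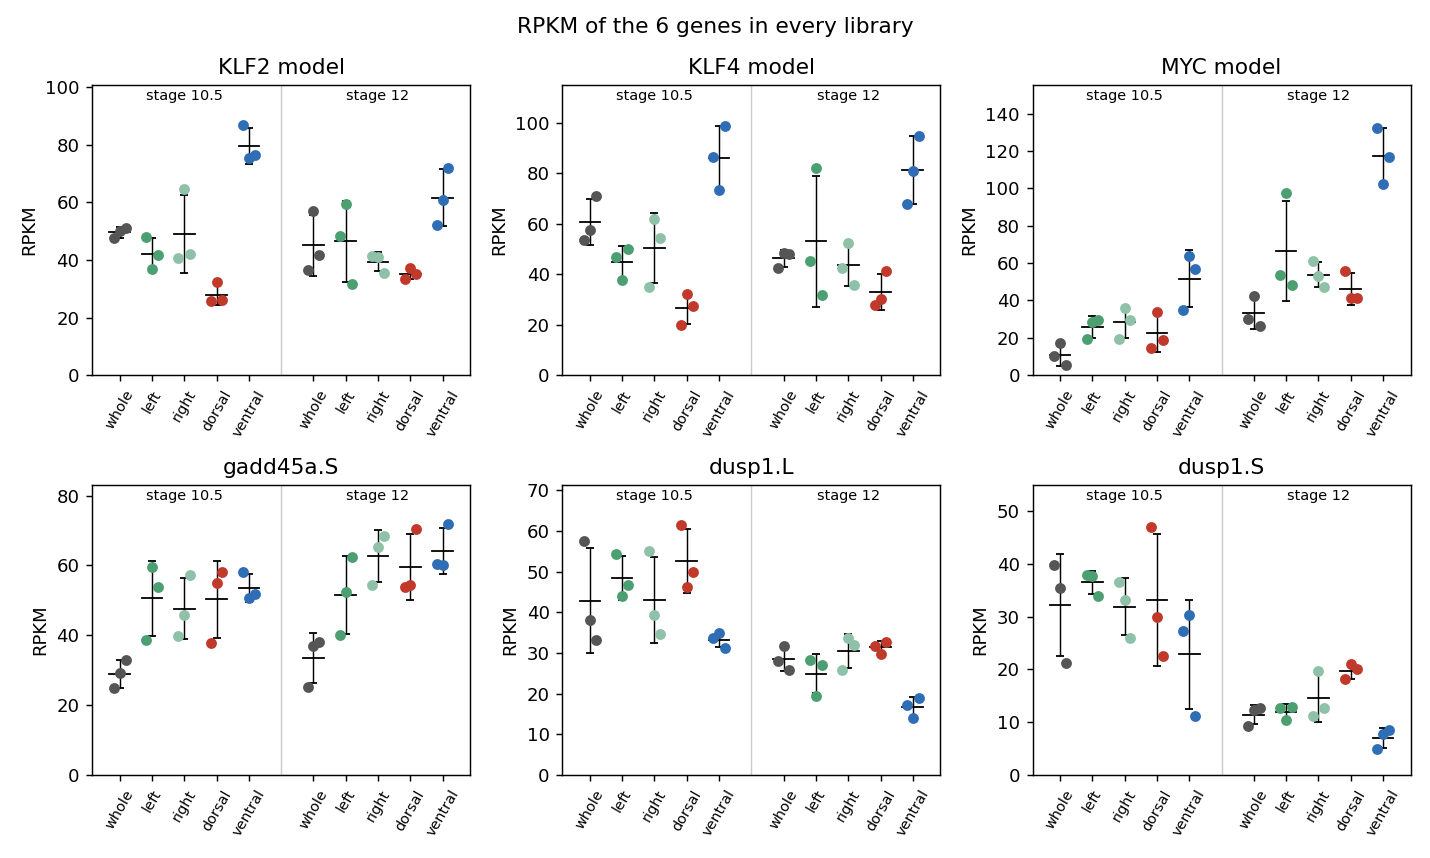
RPKM (y axis, linear, from 0) of each of the 6 genes in every library, by group and stage (x axis), with points for the 3 libraries of a group, horizontal lines for their mean and error bars for 1 SD. gadd45a.S lies above the whole embryos in all 12 half-embryo libraries of both stages, KLF2 and KLF4 are lowest in dorsal and highest in ventral half-embryos at stage 10.5, and dusp1.S is highest in dorsal and lowest in ventral half-embryos at stage 12.

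KLF2 was expressed in every library of both stages. At stage 10.5 the whole-embryo libraries 1, 2 and 3 held 47.4, 50.1 and 51.1 RPKM. Dorsal half-embryos held 25.6, 32.3 and 26.0 RPKM, and ventral half-embryos 86.8, 75.2 and 76.5. All 3 dorsal libraries lay below all 3 whole embryos, and all 3 ventral libraries lay above them. Left half-embryos held 48.0, 36.8 and 41.6 RPKM, and right half-embryos 40.5, 64.5 and 42.0. The sagittal half-embryos overlapped the whole embryos, and the high right value of 64.5 came from library 2, the one with the low organizer sum. The difference between dorsal and ventral groups was -1.48 ± 0.16 on the log2 scale (limma adjusted p = 0.000438), a 2.79-fold lower level in dorsal half-embryos.

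At stage 12 the contrast of KLF2 was smaller. Whole embryos held 36.5, 56.8 and 41.7 RPKM, dorsal half-embryos 33.5, 37.1 and 35.1, and ventral half-embryos 52.1, 60.7 and 72.0. Dorsal and ventral libraries still did not overlap, but both now overlapped the whole embryos. The ventral level remained higher, with dorsal minus ventral at -0.78 ± 0.21 (limma adjusted p = 0.0642, and 0.0274 in the fit that blocks on replicate number or 0.0406 in the fit of those 2 groups alone). The change of this difference between stages was 0.70 ± 0.27, at an unadjusted p of 0.0175 and an adjusted limma p of 1.00, so a smaller difference at stage 12 was not called. Left half-embryos held 48.2, 59.4 and 31.7 RPKM and right half-embryos 41.3, 41.1 and 35.5, with the highest of the 6 in left library 2.

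KLF4 followed the order of KLF2, with ventral half-embryos highest. At stage 10.5 whole embryos held 53.7, 57.4 and 71.2 RPKM, dorsal half-embryos 20.0, 32.0 and 27.3, and ventral half-embryos 86.4, 73.2 and 98.6. The 3 groups did not overlap. Between dorsal and ventral half-embryos KLF4 differed by -1.68 ± 0.22 (limma adjusted p = 0.00136), a 3.20-fold lower level in dorsal half-embryos. Left half-embryos held 47.0, 37.8 and 49.9 RPKM, all below the whole embryos, and right half-embryos held 35.0, 62.0 and 54.5, which overlapped them. The mean of the sagittal half-embryos minus whole was -0.36 ± 0.19 for KLF4 (limma adjusted p = 0.308), which was not called.

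At stage 12 KLF4 kept 3 groups that did not overlap, with dorsal half-embryos at 27.7, 30.03 and 41.2 RPKM, whole embryos at 42.5, 48.4 and 48.2, and ventral half-embryos at 67.9, 80.9 and 94.9. KLF4 in dorsal minus ventral half-embryos was -1.28 ± 0.27 (limma adjusted p = 0.0158). Without dorsal library 1, dorsal library 2 or ventral library 3 the same difference of KLF4 was -1.17, -1.23 and -1.17 and was no longer called (limma adjusted p = 0.0728, 0.0713 and 0.0719). Left half-embryos held 45.2, 82.1 and 31.7 RPKM and right half-embryos 42.3, 52.4 and 35.9. Left library 2 alone lay within the ventral range.

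The 5 groups of KLF2 at stage 10.5 ran from ventral (79.5 ± 6.35 RPKM, mean ± SD, n = 3) through whole (49.5 ± 1.91), right (49.0 ± 13.4) and left (42.2 ± 5.60) to dorsal (27.9 ± 3.77). Between the ventral and whole groups and between the left and dorsal groups the libraries did not overlap, and the middle 3 groups could not be separated. For KLF4 the order at stage 10.5 was ventral (86.1 ± 12.7), whole (60.8 ± 9.23), right (50.5 ± 13.96), left (44.9 ± 6.30) and dorsal (26.5 ± 6.01). Neighbours overlapped only from whole through right to left. Over the 30 libraries, each stage centred on its own mean, the log2 levels of KLF2 and KLF4 had a Pearson r of 0.921, a description of libraries that share groups and replicate numbers, and KLF4 was the gene most like KLF2 of 7565 compared. The next genes by that measure were dlx5.S (r = 0.896), an epidermal homeobox gene, and bambi.L (r = 0.858), a BMP target, for KLF2, and bambi.L (r = 0.916) and the AP-2 model TFAP2C (Xelaev18046210m, r = 0.892) for KLF4.

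Marker genes of the epidermis, the ventral side and the organizer also differed between dorsal and ventral half-embryos. Of 19 measured epidermal markers 10 were called lower in dorsal than in ventral half-embryos at stage 10.5, with summed levels of 999 to 1267 RPKM in dorsal and 1208 to 1782 in ventral half-embryos, and of 18 ventral markers 12 were lower, with sums of 802 to 1057 and 1649 to 2155. At stage 12, 14 of 21 epidermal markers were lower and 1 was higher, and 13 of 18 ventral markers were lower. Of 22 organizer markers 21 were higher in dorsal half-embryos at stage 10.5 and 22 of 22 at stage 12, where gsc.L was listed at 0 in all 3 ventral libraries. Over all genes 0.600% were called higher and 0.390% lower in dorsal half-embryos at stage 10.5, and 2.01% and 1.75% at stage 12. The share of these marker differences in the results for KLF2, KLF4 and MYC was not tested. The 1 measured marker of blood and immune cells, an LMO2 model listed at stage 10.5 only, stood at 0.268 to 1.43 RPKM in dorsal and 0.400 to 1.92 in ventral half-embryos.

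MYC was the gene with the largest difference between cut and whole embryos among the 6. At stage 10.5 whole embryos held 10.2, 17.3 and 5.63 RPKM. Left half-embryos held 19.3, 28.4 and 29.6 RPKM, right half-embryos 19.3, 36.1 and 29.4, and ventral half-embryos 34.6, 63.6 and 56.7. All 9 of these libraries lay above the 3 whole embryos. Dorsal half-embryos held 14.7, 34.0 and 18.7 RPKM, of which the lowest fell between whole embryos 2 and 1. Each dorsal library was 1.45 to 3.33 times its same-numbered whole embryo, and each ventral library 3.40 to 10.1 times. The highest of these ratios rest on whole library 3, which held 49 reads of MYC.

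The mean of the 4 half-embryo groups minus whole was 1.45 ± 0.30 for MYC at stage 10.5 (limma adjusted p = 0.0162), a 2.74-fold higher level in half-embryos. Without whole library 1 or whole library 3 the difference was 1.46 and 1.08 and was no longer called (limma adjusted p = 0.0572 and 0.118). Ventral minus whole was 2.20 ± 0.39 (limma adjusted p = 0.0140), and it ran from 1.83 to 2.21 without being called when whole library 1 or 3 or ventral library 2 or 3 was left out (limma adjusted p = 0.0560 to 0.0786). Dorsal minus whole was 1.00 ± 0.39 for MYC, which was called only with the replicate block (limma adjusted p = 0.146, and 0.0144 with the block). Sagittal minus whole was 1.30 ± 0.33 (limma adjusted p = 0.0548, and 0.00260 with the block). These comparisons share the same 3 whole-embryo libraries.

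At stage 12, in the separately normalised table, MYC was listed at a higher mean RPKM in every group. Whole embryos held 30.1, 42.5 and 26.5 RPKM, and ventral half-embryos 132, 102 and 117. Left half-embryos held 53.7, 97.2 and 48.4, right half-embryos 61.0, 53.2 and 47.4, and dorsal half-embryos 56.0, 41.1 and 41.4. The left, right and ventral libraries all lay above the 3 whole embryos, while 2 of the 3 dorsal libraries lay below whole library 2. The left value of 97.2 came from the library with few organizer transcripts and lay just under the ventral range.

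At that stage the mean of the 4 half-embryo groups minus whole was 0.99 ± 0.19 for MYC (limma adjusted p = 0.0207), and 0.91 without left library 2 (limma adjusted p = 0.0111). Without whole library 1 or 3 it was 0.94 and 0.85 and was not called (limma adjusted p = 0.137 and 0.122). Ventral minus whole was 1.81 ± 0.24 (limma adjusted p = 0.00140) and dorsal minus whole 0.48 ± 0.24 (limma adjusted p = 0.374). Sagittal minus whole was 0.83 ± 0.21 (limma adjusted p = 0.0755, and 0.0230 with the block), and 0.67 without left library 2 (limma adjusted p = 0.0820). Dorsal minus ventral was -1.33 ± 0.24 for MYC at stage 12, a 2.52-fold lower level in dorsal half-embryos (limma adjusted p = 0.00614). At stage 10.5 that difference was -1.20 ± 0.39 and was called only with the replicate block (limma adjusted p = 0.349, and 0.0265 with the block).

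The authors' table header describes a selection of twin genes as those more than doubled over whole embryos in both left and right half-embryos, with likely wound genes set aside by a further comparison with dorsal or ventral half-embryos. MYC at stage 10.5 had a ratio of group means of 2.33 for left over whole and 2.56 for right over whole. The mean of the left and right groups was 1.20 times the dorsal and 0.524 times the ventral mean. Both ratios over whole rest in part on whole library 3, at 5.63 RPKM and 49 reads. Left libraries 1, 2 and 3 were 1.89, 1.64 and 5.26 times their same-numbered whole embryos. Right libraries 1, 2 and 3 were 1.90, 2.088 and 5.23 times theirs. At stage 12 the ratios of group means over whole were 2.01 and 1.63. The left one includes left library 2, at 97.2 RPKM and 2.29 times its same-numbered whole embryo. Left libraries 1 and 3 were 1.78 and 1.83 times theirs. For gadd45a.S the ratios of the left and right group means over whole were 1.75 and 1.64 at stage 10.5 and 1.54 and 1.88 at stage 12.

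A second MYC model, Xelaev18034007m, was listed beside the first. Its dorsal minus ventral difference was -0.27 ± 0.41 at stage 10.5 (limma adjusted p = 1.00) and -0.23 ± 0.22 at stage 12 (limma adjusted p = 0.989), neither called. Its mean of half-embryos minus whole was 0.78 ± 0.32 at stage 10.5 (limma adjusted p = 0.153, and 0.0188 with the block) and 0.91 ± 0.18 at stage 12 (limma adjusted p = 0.0207), close to the 0.99 of Xelaev18032361m. In ventral half-embryos of stage 12 it was 1.25 ± 0.22 above whole embryos (limma adjusted p = 0.00780), where the first model was called too. The ratio of Xelaev18032361m to Xelaev18034007m was 1.70 in dorsal and 3.29 in ventral half-embryos at stage 10.5 as geometric means, and 0.950 and 2.06 at stage 12. The dorsal and ventral ratios did not overlap at either stage, with a two-sided exact permutation p of 0.1, the smallest that 3 against 3 libraries can give, so this test could not reach 0.05. Reads of near-identical copies can be split between models by the counting, so ratios between copies are uncertain in level.

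**Figure D2:**
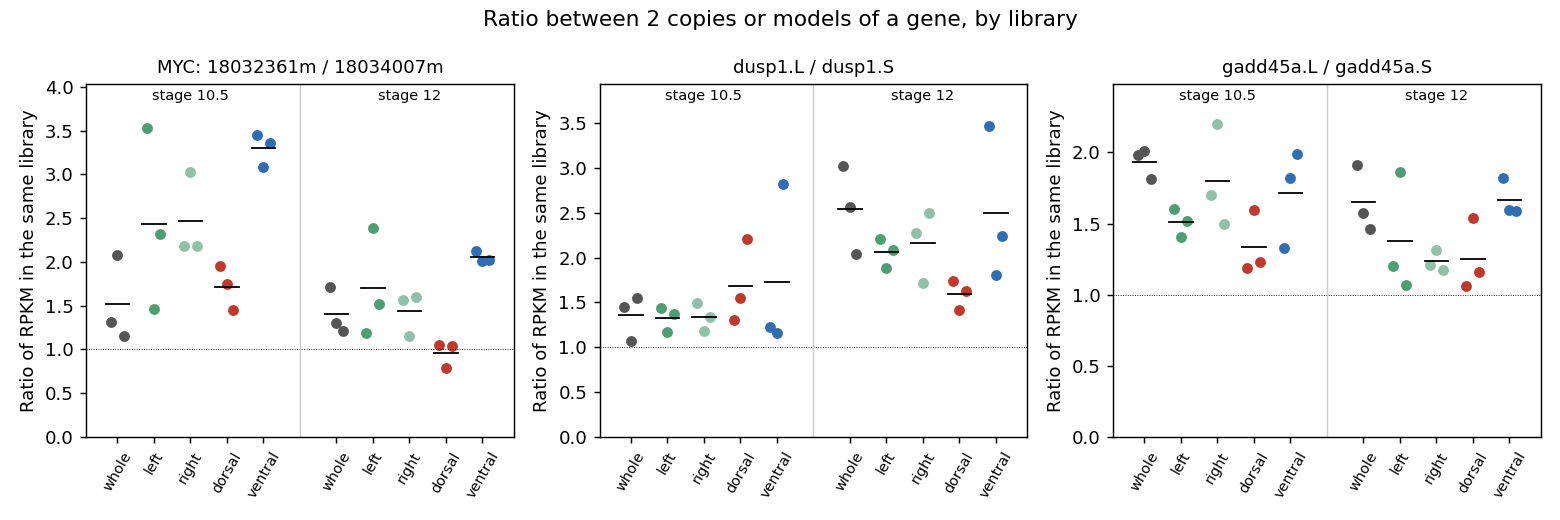
Ratio of RPKM between copies of a gene (y axis, linear, from 0) in each library, by group and stage (x axis), for the MYC, dusp1 and gadd45a pairs, with horizontal lines for group means and a dotted line at 1. The MYC ratio of Xelaev18032361m to Xelaev18034007m lies lower in dorsal than in ventral half-embryos at both stages, and dusp1.L exceeds dusp1.S in all 15 libraries of each stage.

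The genes whose log2 level over the 30 libraries was most like MYC were cdx2.L (r = 0.918), a posterior homeobox gene, znf703.L (r = 0.911), a zinc finger gene, and evx1.L (r = 0.899), another posterior homeobox gene. MYC and KLF2 had r = 0.511, and MYC and gadd45a.S r = 0.620. These values describe libraries that share groups and replicate numbers. Summed mesoderm markers, a list that holds cdx2 and evx1, were 725 to 831 RPKM in dorsal, 910 to 1151 in ventral and 501 to 705 in whole embryos at stage 10.5. At stage 12 these sums were 955 to 1202, 1461 to 1798 and 936 to 1134. The 3 list members with the smallest adjusted p went both ways in dorsal minus ventral at stage 10.5. They were myf5.L (2.92, limma adjusted p = 0.00685), wnt8a.L (-1.11, limma adjusted p = 0.00734) and myf5.S (2.62, limma adjusted p = 0.00983). The part of the mesoderm markers in the MYC result was not tested.

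gadd45a.S was the only gene of the 6 in which every half-embryo library exceeded every whole-embryo library at both stages. How many of all genes show that separation was not counted. In half-embryos against whole embryos 25.4% of all genes at stage 10.5 and 19.9% at stage 12 had an unadjusted limma p under 0.05. At stage 10.5 whole embryos held 24.9, 29.2 and 32.9 RPKM, and the 12 half-embryo libraries ran from 37.7 through a median of 52.7 to 59.5. At stage 12 whole embryos held 25.2, 37.0 and 38.1 RPKM, and the half-embryo libraries ran from 40.0 through 60.3 to 71.9. The gap between the highest whole embryo and the lowest half-embryo was small at stage 12, where left library 1 stood at 40.0.

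The 4 half-embryo groups of gadd45a.S were alike in level. At stage 10.5 left half-embryos held 38.6, 59.5 and 53.7 RPKM, right half-embryos 39.8, 45.8 and 57.2, dorsal half-embryos 37.7, 55.0 and 58.0, and ventral half-embryos 58.0, 50.7 and 51.7. Dorsal minus ventral was -0.11 ± 0.20 with a 95% interval of -0.53 to 0.31 (limma adjusted p = 1.00), and all 4 groups overlapped. At stage 12 left half-embryos held 40.0, 52.5 and 62.3 RPKM, right half-embryos 54.3, 65.4 and 68.4, dorsal half-embryos 53.8, 54.4 and 70.5, and ventral half-embryos 60.3, 60.2 and 71.9. Dorsal minus ventral was again -0.11 ± 0.19, with an interval of -0.52 to 0.30, so neither interval held the size of the differences seen in the KLF models.

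The mean of the 4 half-embryo groups minus whole was 0.77 ± 0.16 for gadd45a.S at stage 10.5 (limma adjusted p = 0.0133) and 0.82 ± 0.15 at stage 12 (limma adjusted p = 0.0183), 1.71-fold and 1.77-fold higher levels in half-embryos. In same-numbered libraries the half-embryos were 1.51 to 2.33 times the whole embryo at stage 10.5 and 1.42 to 2.40 times at stage 12. The change of this difference between stages was 0.05 ± 0.22 (95% interval -0.41 to 0.51, limma adjusted p = 1.00). Without whole library 1 or whole library 3 the difference was 0.67 and 0.86 at stage 10.5 and 0.63 and 0.92 at stage 12, and none of these was called (limma adjusted p = 0.0652, 0.0638, 0.134 and 0.0548). The level of gadd45a.S rested on 45 to 125 reads a library at stage 10.5 and on 27 to 187 at stage 12, with the fewest in whole embryos.

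Each half-embryo group of gadd45a.S was also set against whole embryos by itself, with the same 3 whole libraries each time. At stage 10.5 the differences were 0.76 ± 0.20 for dorsal (limma adjusted p = 0.0476), 0.87 ± 0.20 for ventral (limma adjusted p = 0.0400) and 0.73 ± 0.17 for sagittal half-embryos (limma adjusted p = 0.0415). At stage 12 they were 0.83 ± 0.19 for dorsal (limma adjusted p = 0.0580, and 0.00318 with the block), 0.94 ± 0.19 for ventral (limma adjusted p = 0.0160) and 0.76 ± 0.17 for sagittal half-embryos (limma adjusted p = 0.0449). None of the 3 calls at stage 10.5 held when any 1 whole library was left out, with differences from 0.63 to 0.96 (limma adjusted p = 0.0758 to 0.130). They were also lost without dorsal library 2 or 3, without any 1 ventral library, and without library 2 or 3 of the left or right group. At stage 12 the ventral call was lost without whole library 1 or ventral library 1 or 3 (0.75 to 0.98, limma adjusted p = 0.0515 to 0.0676). The sagittal call at stage 12 was lost without whole library 1 or 3 or without library 2 or 3 of either sagittal group, with a difference of 0.75 and a limma adjusted p of 0.0736 without left library 2.

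The other copy, gadd45a.L, stood 1.60 times as high as gadd45a.S at stage 10.5 and 1.46 times at stage 12 by the median ratio over 15 libraries. Its mean of half-embryos minus whole was 0.48 ± 0.18 at stage 10.5 (limma adjusted p = 0.108, and 0.00296 with the block) and 0.56 ± 0.17 at stage 12 (limma adjusted p = 0.0966, and 0.0177 with the block). In ventral half-embryos of stage 12 gadd45a.L stood 0.97 ± 0.22 above whole embryos (limma adjusted p = 0.0263). Its ratio to gadd45a.S at that stage was 1.24 in dorsal and 1.66 in ventral half-embryos as geometric means, without overlap (two-sided exact permutation p = 0.1, the smallest possible). At stage 10.5 this ratio was 1.32 in dorsal and 1.69 in ventral half-embryos with overlap (two-sided exact permutation p = 0.2). The genes most like gadd45a.S over the 30 libraries were ywhaq.L (r = 0.863), a 14-3-3 adaptor, dynll1.S (r = 0.860), a dynein light chain, and tuba4a.L (r = 0.852), an alpha tubulin. Of 5 measured GADD45 family members gadd45a.S was the 1 called higher in half-embryos at each stage (2 with the block at both stages), the median of the 5 being 0.29 at stage 10.5 and 0.32 at stage 12 against -0.07 and -0.03 over all genes. Over all genes 2.38% and 1.39% were called higher in half-embryos at the 2 stages. With the block 30.4% and 12.9% were called in either direction.

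dusp1.L and dusp1.S were not called between the mean of the half-embryos and whole embryos at either stage. At stage 10.5 dusp1.L held 57.5, 38.1 and 33.1 RPKM in whole embryos, 54.4, 44.0 and 46.6 in left, 54.9, 39.2 and 34.7 in right, 61.3, 46.3 and 49.9 in dorsal and 33.6, 35.0 and 31.3 in ventral half-embryos. All groups overlapped the whole embryos, and the dorsal libraries lay above the ventral ones. The mean of the half-embryos minus whole was 0.05 ± 0.16 with a 95% interval of -0.29 to 0.40 for dusp1.L (limma adjusted p = 0.879). Dorsal minus ventral was 0.63 ± 0.20 and was called only with the replicate block (limma adjusted p = 0.346, and 0.0190 with the block). In all 3 same-numbered pairs the dorsal half-embryo held 1.32 to 1.83 times the ventral level.

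At stage 12 the level of dusp1.L in ventral half-embryos, at 17.2, 13.9 and 18.9 RPKM, lay below all whole embryos, at 28.1, 31.7 and 25.8. Dorsal half-embryos held 31.6, 29.6 and 32.8 RPKM, left half-embryos 28.3, 19.5 and 27.0, and right half-embryos 25.7, 33.7 and 31.9. The dorsal libraries all lay above the ventral ones and overlapped the whole embryos, and the lowest sagittal value was that of left library 2. The dorsal minus ventral difference of dusp1.L was 0.88 ± 0.17 (limma adjusted p = 0.00760), a 1.84-fold higher level in dorsal half-embryos. Ventral minus whole was -0.75 ± 0.17 (limma adjusted p = 0.0250), a call lost without any 1 whole library or without ventral library 1 or 2 (-0.81 to -0.63, limma adjusted p = 0.0542 to 0.0831), and dorsal minus whole was 0.13 ± 0.17 (limma adjusted p = 0.776).

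dusp1.S was the less abundant copy. At stage 10.5 it held 39.8, 35.4 and 21.3 RPKM in whole embryos, 47.0, 29.97 and 22.6 in dorsal half-embryos and 27.3, 30.3 and 11.1 in ventral half-embryos, and these groups overlapped. Left half-embryos held 37.9, 37.7 and 33.9 RPKM and right half-embryos 36.7, 33.1 and 25.9. The dorsal minus ventral difference of dusp1.S was 0.57 ± 0.35 (limma adjusted p = 1.00), with the lowest value of the stage in ventral library 3.

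At stage 12 dusp1.S held 9.31, 12.3 and 12.7 RPKM in whole embryos, 18.1, 21.0 and 20.1 in dorsal half-embryos and 4.95, 7.71 and 8.47 in ventral half-embryos. None of these 3 groups overlapped another. Left half-embryos held 12.8, 10.3 and 13.0 RPKM and right half-embryos 11.3, 19.7 and 12.8. For dusp1.S dorsal minus ventral was 1.39 ± 0.22 (limma adjusted p = 0.00272), a 2.62-fold higher level in dorsal half-embryos. Against the shared whole embryos, dorsal half-embryos differed by 0.75 ± 0.22 (limma adjusted p = 0.129, and 0.0346 with the block) and ventral half-embryos by -0.64 ± 0.22 (limma adjusted p = 0.134, and 0.0437 with the block).

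The ratio of dusp1.L to dusp1.S had a median of 1.37 at stage 10.5 and 2.08 at stage 12, with the long copy higher in all 15 libraries of each stage. At stage 12 the ratio was 1.59 in dorsal and 2.41 in ventral half-embryos without overlap (two-sided exact permutation p = 0.1, the smallest possible), and at stage 10.5 it was 1.65 and 1.59 with overlap (p = 0.9 by the same exact test). The log2 levels of both copies had r = 0.754 over the 30 libraries, and dusp1.L had r = -0.784 with KLF4. Genes most like dusp1.L were the SOX3 model Xelaev18042169m (r = 0.836), a neural transcription factor, fzd8.L (r = 0.832), a Wnt receptor, and foxd3.L (r = 0.830), a forkhead gene. For dusp1.S they were adamts1.S (r = 0.822), a secreted protease, the EPHA2 model Xelaev18036394m (r = 0.814), an ephrin receptor, and eomes.S (r = 0.808), a T-box gene of the mesoderm. Neural markers moved with the dorsal and ventral contrast too: of 21 measured, 12 were higher in dorsal half-embryos at stage 10.5 and 18 at stage 12, with sums at stage 12 of 1108 to 1239 RPKM in dorsal and 330 to 472 in ventral half-embryos, and their part in the dusp1 result was not tested. Over all genes 0.600% and 2.01% were called higher in dorsal half-embryos at the 2 stages.

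**Figure D3:**
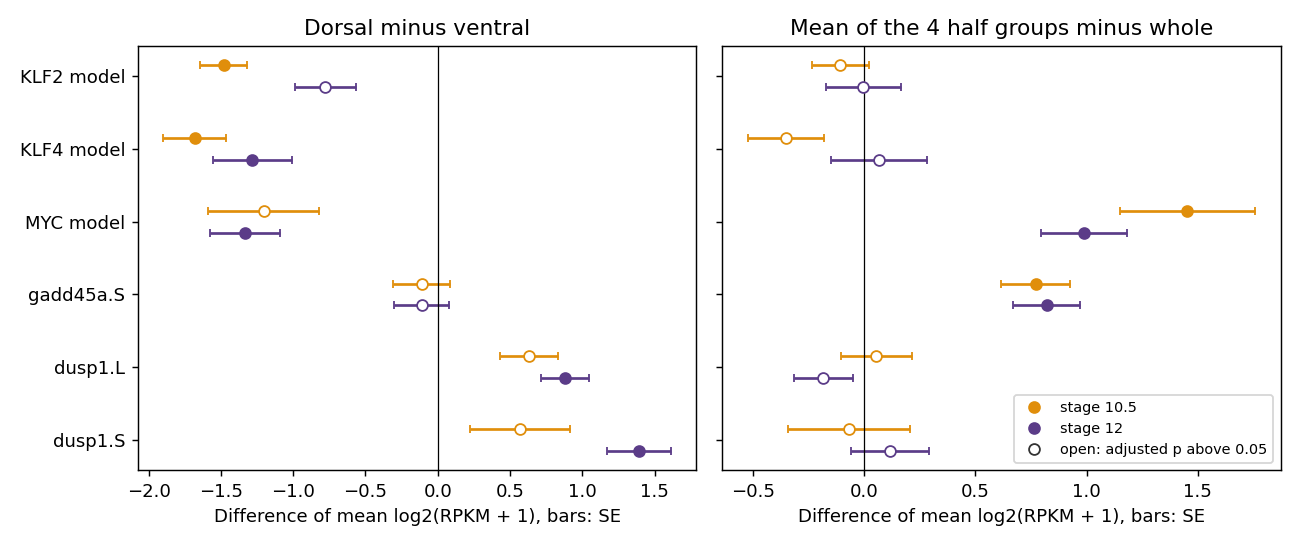
Difference of mean log2(RPKM + 1) with its standard error (x axis) for each of the 6 genes in the main comparisons at both stages, filled where the limma adjusted p was 0.05 or less. MYC and gadd45a.S are filled to the right of 0 for all half-embryos minus whole at both stages, while KLF2 and KLF4 lie to the left of 0 and dusp1 to the right for dorsal minus ventral.

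Counts over the 6 genes were read against the share of all genes called. Dorsal against ventral half-embryos called 2 of the 6 at stage 10.5 (0 higher and 2 lower), where 0.600% of all 16672 genes tested were called higher and 0.390% lower. With the replicate block it called 4 of the 6 and 2.17% of all genes. At stage 12 it called 4 of the 6 (2 higher and 2 lower), where 2.01% of 15594 genes were called higher and 1.75% lower, and with the block 5 of the 6 and 5.76% of all genes. The mean of the half-embryos against whole embryos called 2 of the 6 at each stage, also with the block, under which 30.4% and 12.9% of all genes were called.

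Against whole embryos at stage 10.5, dorsal half-embryos called 3 of the 6 (KLF2, KLF4 and gadd45a.S, background 4.23%), ventral half-embryos 2 (MYC and gadd45a.S, background 2.06%) and sagittal half-embryos 1 (gadd45a.S, background 2.71%). With the block these counts were 4, 3 and 2, where 25.3%, 17.4% and 22.0% of all genes were called. KLF2 differed by -0.81 ± 0.16 in dorsal half-embryos from whole embryos (limma adjusted p = 0.0214), and KLF4 by -1.18 ± 0.22 (limma adjusted p = 0.0170). Neither was called without whole library 3 or dorsal library 3, nor KLF2 without dorsal library 1, where KLF2 ran from -0.79 to -0.75 and KLF4 from -1.22 to -1.07 (limma adjusted p = 0.0612 to 0.0944). In ventral half-embryos KLF2 stood 0.67 ± 0.16 above whole embryos (limma adjusted p = 0.0566, and 0.0152 with the block). At stage 12 dorsal half-embryos called 0 of the 6 by limma (background 0.814%; 2 at an unadjusted p under 0.05, as were 15.2% of all genes), ventral half-embryos 3 (MYC, gadd45a.S and dusp1.L, background 3.95%) and sagittal half-embryos 1 (gadd45a.S, background 1.38%). With the block these counts were 2, 4 and 2, where 6.68%, 11.1% and 8.48% of all genes were called.

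Between left and right half-embryos limma called 0 of the 6 genes at either stage, where 0% of all genes were called. At an unadjusted p under 0.05 there were 0 of the 6, against 0.642% of all genes at stage 10.5 and 1.40% at stage 12. Sagittal against frontal half-embryos likewise called 0 of the 6, where 0.0240% of all genes were called at stage 10.5 and 0.0128% at stage 12. There 0 of the 6 had an unadjusted p under 0.05, against 2.68% and 4.03% of all genes. The closest to the threshold there was dusp1.L at stage 12, at 0.25 ± 0.12 (unadjusted p = 0.0547). Changes between stages called 0 of the 6 and 0% of all 14947 genes tested, with 1 gene (KLF2) at an unadjusted p under 0.05 for dorsal minus ventral, where 2.55% of all genes were, and 0 for half-embryos minus whole, where 7.25% were.

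Levels at the 2 stages come from tables that were normalised separately and were not tested against each other. The mean over 15 libraries of MYC was 27.8 RPKM at stage 10.5 and 63.3 at stage 12, that of dusp1.L 44.0 and 26.4, and that of dusp1.S 31.3 and 13.0. KLF2 stood at 49.6 and 45.5 RPKM, KLF4 at 53.7 and 51.4, and gadd45a.S at 46.2 and 54.3. MYC was thus listed higher and both dusp1 copies lower at the later stage, while the other 3 genes were listed at similar levels.

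Other models with the symbol KLF2 were listed beside Xelaev18025218m. Dorsal minus ventral was -1.07 ± 0.24 for Xelaev18001123m at stage 10.5 (limma adjusted p = 0.0686, and 0.0360 with the block) and -1.34 ± 0.31 at stage 12 (limma adjusted p = 0.0246). For Xelaev18006666m it was -0.81 ± 0.31 and -1.25 ± 0.39 (limma adjusted p = 0.662 and 0.121, the latter 0.0397 with the block), and for Xelaev18025217m -1.23 ± 0.33 and -0.50 ± 0.54 (limma adjusted p = 0.158 and 1.00, the former 0.0169 with the block). All 4 KLF2 models had negative values in that comparison at both stages. Over all genes 43.1% of values in it were positive at stage 10.5 and 53.3% at stage 12. Reads of near-identical models can be split by the counting, so the 4 may not be separate measurements.

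The wider immediate early and wound list held 85 measured genes at stage 10.5 and 83 at stage 12, the 6 genes among them. In half-embryos against whole embryos 5 were called higher and 1 lower at stage 10.5 (20 and 3 with the block), with btg1.L, an antiproliferative gene, at 0.62 ± 0.15 (limma adjusted p = 0.0251) beside MYC and gadd45a.S, and 5 higher and 0 lower at stage 12 (17 and 1 with the block). Called genes in either direction were 7.06% of the list at stage 10.5, against 7.69% of all genes, and 27.1% against 30.4% with the block. By direction the calls over all genes leaned the other way, with 2.38% higher and 5.31% lower. With the block 33.3% of the calls over all genes were higher. At stage 12 called genes were 6.02% of the list against 2.78%, and 21.7% against 12.9% with the block. There 1.39% of all genes were called higher and 1.39% lower, and with the block 46.0% of the calls over all genes were higher. The list holds MYC and gadd45a.S, which were chosen with these results known. The median difference of the list was 0.23 and 0.07, against -0.07 and -0.03 over all genes. Between dorsal and ventral half-embryos 0 were called higher and 2 lower at stage 10.5, KLF2 and KLF4, and 4 higher and 5 lower at stage 12. Over all genes that comparison called 0.600% higher and 0.390% lower at stage 10.5, and 2.01% and 1.75% at stage 12. The AP-1 and EGR genes of the list, the best known of the immediate early class and chosen here after their values were seen, were not called. Half-embryos cut at stage 8 were sampled at stages 10.5 and 12, so a response within minutes of the cut was not measured. fos.L ranged from 0.868 to 10.1 RPKM in whole embryos and from 1.09 to 14.3 in half-embryos at stage 10.5, with a difference of 0.05 ± 0.58 (limma adjusted p = 0.970). egr1.L ranged from 6.15 to 17.2 RPKM and from 5.60 to 15.4, with a difference of -0.15 ± 0.30 (limma adjusted p = 0.812). Values of fos.L, fos.S, junb.L, junb.1, egr1.L and egr1.S overlapped between whole embryos and half-embryos at both stages, and the standard errors of the fos and junb copies ran from 0.35 to 0.76, against 0.15 to 0.16 for gadd45a.S.

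Genes around each member were counted from lists of its pathway. In the KLF and SP family of zinc finger factors, 3 of 27 were called lower and 0 higher in dorsal than ventral half-embryos at stage 10.5 (6 and 0 with the block), KLF2, KLF4 and sp7.S (-0.76 ± 0.16, limma adjusted p = 0.0475), and 5 of 28 lower and 0 higher at stage 12, led by klf5.L (-1.998 ± 0.28, limma adjusted p = 0.00122), a factor of epithelial cells. Lower calls were 11.1% of the family at stage 10.5 and 17.9% at stage 12, against 0.390% and 1.75% of all genes, and with the block calls were 22.2% and 25% against 2.17% and 5.76%, KLF2 and KLF4 models included. The family's median was -0.11 and -0.19, against -0.03 and 0.02 over all genes.

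Of 32 MYC target genes at stage 10.5, 3 were called higher and 0 lower in half-embryos than in whole embryos (14 and 1 with the block), and 29 of the 32 had positive values, with a median of 0.21 against -0.07 over all genes. These shares were 9.38% called higher against 2.38% of all genes, 46.9% called with the block against 30.4%, and 90.6% positive against 40.4%. The 3 called were the translation factor model EIF4A1 (Xelaev18001058m, 0.80 ± 0.13, limma adjusted p = 0.00594), odc1.L, the first enzyme of polyamine synthesis (0.42 ± 0.10, limma adjusted p = 0.0297), and the replication helicase subunit mcm5.L (0.39 ± 0.11, limma adjusted p = 0.0421). At stage 12, 2 of 33 were called higher and 0 lower (7 and 0 with the block), odc1.L at 0.60 ± 0.09 (limma adjusted p = 0.00570) and mcm5.L at 0.50 ± 0.10 (limma adjusted p = 0.0261). That was 6.06% called higher against 1.39% of all genes, and 21.2% called with the block against 12.9%. Between dorsal and ventral half-embryos limma called 0 MYC targets at either stage, without and with the block. Their medians were 0.04 and -0.05, against -0.03 and 0.02 over all genes. At stage 10.5, 24 of the 32 had positive values there, as had 43.1% of all genes. MYC itself was lower dorsally, called at stage 12 but at stage 10.5 only with the block. In the MYC network of 21 genes at stage 10.5, 1 was called higher and 2 lower in half-embryos, MYC itself against max.L, the dimer partner of MYC (-0.51 ± 0.12, limma adjusted p = 0.0246), and the MLXIP model Xelaev18007814m (-0.56 ± 0.16, limma adjusted p = 0.0440). Over all genes 2.38% were called higher and 5.31% lower in half-embryos at that stage.

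The MAP kinase phosphatases held 7 measured genes at stage 10.5, of which 0 were called between dorsal and ventral half-embryos (1 higher with the block), and 6 at stage 12, of which 2, both dusp1 copies, were called higher (3 with the block). In half-embryos against whole embryos dusp6.L was called higher at stage 10.5 (0.57 ± 0.14, limma adjusted p = 0.0279) and dusp6.S at stage 12 (0.92 ± 0.21, limma adjusted p = 0.0370), genes for the cytoplasmic ERK phosphatase, and dusp16.1 was lower at stage 10.5 (-1.26 ± 0.19, limma adjusted p = 0.00450). ERK feedback and target genes were also compared along the frontal cut. In dorsal half-embryos of stage 10.5, 2 of 21 were called higher than in ventral ones and 0 lower, spred1.L (1.20 ± 0.19, limma adjusted p = 0.00498) and spry2.S (0.91 ± 0.19, limma adjusted p = 0.0433), both encoding inhibitors of ERK signalling, and 19 of 21 had positive values (90.5%, against 43.1% of all genes). At stage 12, 3 of 21 were called higher and 0 lower, spry2.S (1.34 ± 0.21, limma adjusted p = 0.00258), spred1.L (0.90 ± 0.15, limma adjusted p = 0.00301) and spry2.L (0.83 ± 0.18, limma adjusted p = 0.0159). The list's median was 0.29 and 0.44, against -0.03 and 0.02 over all genes. Calls over all genes were 0.600% and 2.01% higher in dorsal than in ventral half-embryos at stages 10.5 and 12. Between half-embryos and whole embryos they were 7.69% and 2.78%.

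FGF ligands, which act upstream of ERK, had 2 of 7 called higher in dorsal half-embryos at stage 10.5, fgf16.L (1.67 ± 0.31, limma adjusted p = 0.0181) and fgf20.L (1.13 ± 0.22, limma adjusted p = 0.0226), and 2 of 8 at stage 12, fgf8.L (1.09 ± 0.19, limma adjusted p = 0.00530) and fgf16.L (1.16 ± 0.25, limma adjusted p = 0.0190), with 0 lower at both stages. Of FGF receptors 0 of 7 and 1 of 9 were called higher, fgfrl1.L at stage 12 (1.59 ± 0.32, limma adjusted p = 0.0117), a receptor that lacks the kinase domain. Of the cascade kinases limma called 0 of 23 and 0 of 24 between dorsal and ventral half-embryos, also with the block. Over all genes that comparison called 0.990% at stage 10.5 and 3.76% at stage 12, with 0.600% and 2.01% higher in dorsal half-embryos.

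The p53 target genes, a list that does not hold gadd45a.S although it is a p53 target in mammals, had 0 of 23 and 0 of 20 called higher and 1 called lower in half-embryos than in whole embryos at each stage (2 and 5 with the block at stage 10.5, 4 and 2 at stage 12). The gene called lower was ccng2.S, a cyclin G2 copy, at -0.66 ± 0.15 at stage 10.5 (limma adjusted p = 0.0194) and -1.03 ± 0.17 at stage 12 (limma adjusted p = 0.00933). The median of the list was -0.05 and -0.01, near the -0.07 and -0.03 of all genes. Called genes were 4.35% of the list at stage 10.5 and 5% at stage 12, against 7.69% and 2.78% of all genes, and with the block 30.4% and 30%, against 30.4% and 12.9%.

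**Figure D4:**
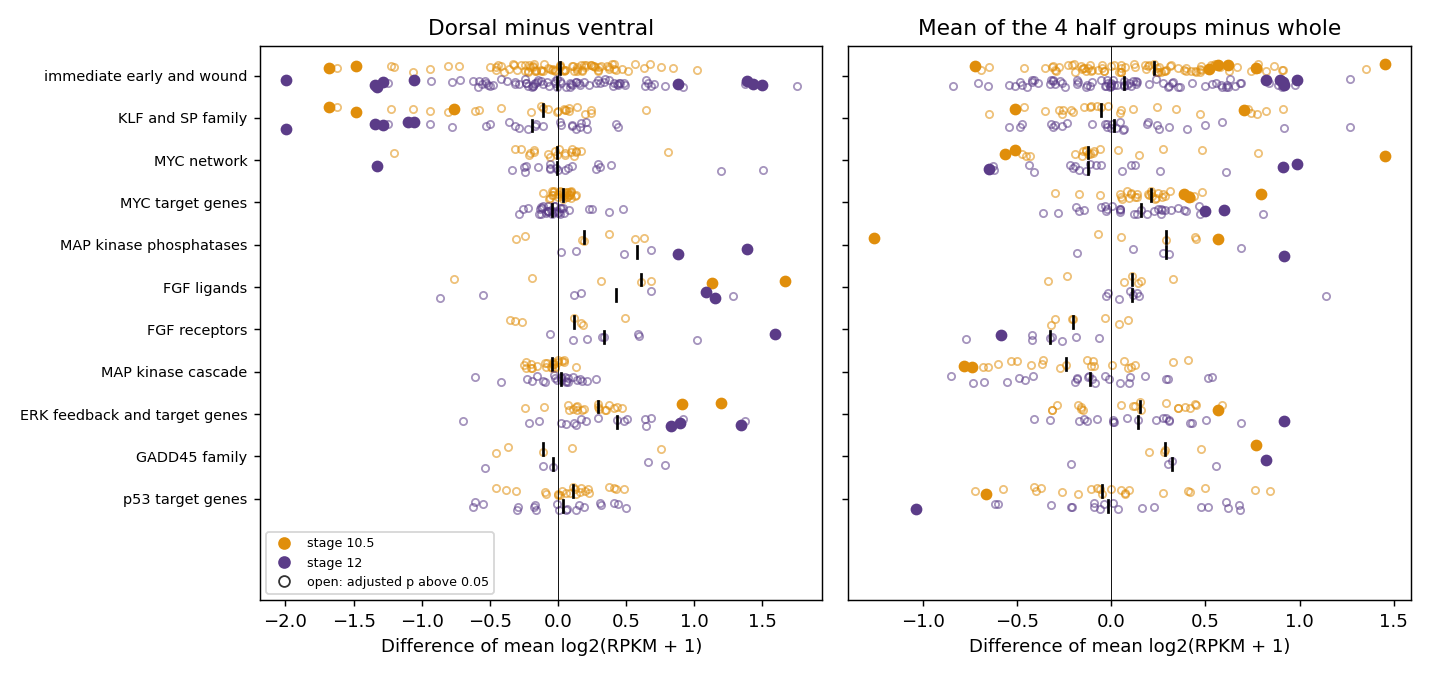
Difference of mean log2(RPKM + 1) of every measured gene (points) in 11 gene lists (rows) for dorsal minus ventral and for the mean of the 4 half-embryo groups minus whole, at stages 10.5 and 12, filled where the limma adjusted p was 0.05 or less, with black bars for list medians. ERK feedback genes lie mostly to the right for dorsal minus ventral, and MYC target genes mostly to the right for half-embryos minus whole.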

How the data were processed

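For each stage the authors deposited a table of RPKM for 15 libraries, listing genes with an average RPKM above 1 on JGI9.1 gene models, per the file headers. The sources used here do not state how reads were counted. TopHat2 2.09 and DESeq are named, without roles, per the submitters' processing notes. RPKM rows were whole multiples of a step within a relative tolerance of 1e-06 in 100% of genes, which gave the whole reads quoted. Groups and replicate numbers came from sample titles. limma 3.58.1 (R 4.3.3, trend option) was fitted to log2(RPKM + 1) over all 15 libraries of a stage, for genes at RPKM 1 or more in at least 3 libraries, two-sided, with Benjamini-Hochberg adjustment over all genes; adjusted p-values are limma's. The script was tested on simulated data. There were 14 comparisons within stages and 2 changes between stages.

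The replicate numbers paired the samples: labels name the controls that serve same-numbered half-embryos. Deviations from group means correlated at 0.414 or more between same-numbered libraries at stage 10.5 and 0.274 or more at stage 12. Between others the values were -0.157 or less and -0.0832 or less. Deviations within a group sum to 0, which ties these negative values to the positive ones, so they are not separate evidence of pairing. The fit without the block was kept as the main one, so its p-values do not use that pairing. Named genes are the 6 members, other models of the same symbols, the 3 smallest adjusted p-values called in each list, and the 3 genes most correlated with each member among genes at a mean RPKM of 2 or more. The members and lists were chosen with earlier results of these data known. Alternatives were the pseudocount, the filter, the block, the groups in the fit, quantile and upper-quartile scaling, the trend, and leaving out each library. Sequences and coordinates are not used here.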

Additional observations from a re-analysis of the deposited data

Results flagged for a closer look

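In 6 cases all 3 same-numbered dorsal to whole ratios lay on 1 side of 1 and all 3 ventral to whole ratios on the other, with the same whole embryos in both. The cases were picked for this among the 6 genes only, and the share of all genes that meet the rule was not counted. Both differences from whole embryos were called by limma in 0 of the 6 cases, and with the replicate block in 2, KLF2 at stage 10.5 and dusp1.S at stage 12. Picking the cases this way fixes the sign of the dorsal minus ventral difference, which is therefore not separate evidence. That difference was -1.68 for KLF4 at stage 10.5 and -1.28 at stage 12, both called by limma. For KLF2 it was -1.48 at stage 10.5, called, and -0.78 at stage 12, not called over all groups but called with the replicate block or in a fit of those 2 groups alone. For dusp1.L it was 0.63 at stage 10.5, called only with the block, and for dusp1.S it was 1.39 at stage 12, called.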

How the results depend on the processing

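Alternatives were followed for 30 of the 96 differences of the 6 genes, those called without or with the replicate block. Of their 438 alternative values, 354 kept direction and side of the threshold, 65 lost and 19 gained a call, and 0 changed sign. The block is itself 1 of these alternatives, so each difference called only with it gains a call there by this choice. Following only called differences also makes changes of sign less likely. With the replicate block the genes called numbered 4 for dorsal against ventral at stage 10.5, 2 for dorsal against whole at stage 12 and 2 for sagittal half-embryos against whole at each stage. The shares of all genes called there were 2.17%, 6.68%, 22.0% and 8.48%. With only the groups compared in the fit, so fewer libraries, the genes called numbered 0 for dorsal, ventral and sagittal half-embryos against whole at stage 10.5, 1 for ventral and 0 for sagittal half-embryos at stage 12. Over all genes those fits called 0, 52 and 16 of 16672 at stage 10.5, and 345 and 22 of 15594 at stage 12. With all groups in the fit these counts over all genes were 705, 343 and 452, and 616 and 215. Quantile and upper-quartile scaling each gave 2 for sagittal half-embryos at stage 10.5 and 1 for dorsal half-embryos at stage 12. Over all genes these scalings called 459 and 461 in the former comparison and 188 and 174 in the latter. Without the trend limma gave 1 for ventral half-embryos at stage 10.5 and 0 for sagittal half-embryos at stage 12. Over all genes it called 342 and 126 there. The cause of these changes was not tested. Over leaving out 1 library, counts ran at stage 10.5 from 0 to 2 for all half-embryos, 0 to 2 for dorsal, 0 to 1 for ventral and 0 to 2 for sagittal half-embryos against whole, staying at 2 for dorsal against ventral, and at stage 12 from 0 to 2 for all half-embryos, 1 to 2 for ventral and 0 to 2 for sagittal half-embryos against whole, and 3 to 4 for dorsal against ventral. The share of all genes called with a library left out was not counted. Calls against whole embryos rest on 3 whole libraries a stage, and 27 to 187 reads limit the precision of gadd45a.S at stage 12. Under quantile and upper-quartile scaling the share of called genes higher in all half-embryos than whole at stage 10.5 was 46.9% and 40.1%, against 30.9% as deposited, and at stage 12 it was 58.9% and 61.6% against 50%.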
